A study of Ovis aries with 14 samples.

Results

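OVAR-DQA1 is the sheep gene for the alpha chain of the DQ molecule, a class II protein of the major histocompatibility complex (MHC). It is 1 of 967 gene symbols that could be attached to the ovine array used here, and 2 of the array's 15008 probes carry its name, A_70_P016751 and A_70_P053731. Both probes were taken by their gene name. The gene itself was chosen by the values its probes gave on these arrays, so its levels and group differences are a description and carry no test. The RNA came from the hypothalamus of catheterized fetal sheep at about 130 days of fetal age, after intravenous infusion for 2 days of triclosan, an antibacterial additive of soaps and other personal care products, or of vehicle. In the direct arm the fetus received vehicle (n = 4) or triclosan at 250 µg per day (n = 4), and in the indirect arm the ewe received vehicle (n = 2 independent arrays of 3 deposited) or triclosan at 100 µg per kg per day (n = 3). The third deposited maternal vehicle array is, by the files, the mixture of the other two, at weights 0.6 and 0.4 on all 15744 spots within a relative tolerance of 1e-06, and it was left out. The labels do not state if each array stands for a pregnancy of its own, so the spread between arrays may be partly technical.

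Class II molecules are pairs of an alpha and a beta chain that carry peptides taken up by a cell to its surface, where CD4+ T cells read them. In mammals they are made by dendritic cells, B cells and macrophages, and in the brain by microglia and by macrophages along vessels and membranes. Ruminants have the DR and DQ pairs found in other mammals and the DY genes, which are particular to ruminants. The DQ genes are polymorphic, and sheep haplotypes differ in the DQ genes they carry.

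The probes differ in sequence and share at most 4 bases in a row. They could not be placed on a sheep transcript here, so the annotated gene name is what links them. In the array's annotation they start at positions 1088 (A_70_P016751) and 577 (A_70_P053731) of their source transcripts, and each is 60 bases long. The sequences are shown because A_70_P053731 closely resembles a probe for the sister gene OVAR-DQA2, another DQ alpha chain gene, and A_70_P016751 resembles no other probe. A_70_P053731 and the OVAR-DQA2 probe A_70_P026541 (start 560) are identical at 56 of 60 positions, and their longest shared run is 31 bases. Counted from 1 at the 5′ end, with the OVAR-DQA1 probe first, they differ by A2G, T34C, C40T and G41T, which are in capitals below.
A_70_P053731: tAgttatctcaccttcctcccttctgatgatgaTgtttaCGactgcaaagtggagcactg
A_70_P026541: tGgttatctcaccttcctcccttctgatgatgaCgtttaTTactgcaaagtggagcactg
Of A_70_P016751 the first 30 bases are given, all in lower case since they hold no marked position.
A_70_P016751: aatccaccaatgaccctatactaatatatc
In the orientation given, A_70_P016751 had 0 reading frames free of a stop codon and 35.0% G and C bases, against 2 open frames and 45.0% for A_70_P053731. No other probe of the array shared a run of 15 bases with A_70_P016751, on either strand. For A_70_P053731 the probe A_70_P026541 was the 1 such probe. The other OVAR-DQA2 probe, A_70_P016707 (start 954), shared at most 7 bases in a row with A_70_P053731 and 5 with A_70_P016751.

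The probes gave different pictures of the same gene. Signals below are processed signals scaled so that the 75th percentile is the same on every array, in arbitrary units that can be compared between arrays for 1 probe and not between probes. At A_70_P016751 the fetal vehicle arrays 1 to 4 read 5.1, 294, 2.4 and 1154. The maternal vehicle arrays read 5.8 and 979. Bright and dark arrays thus stood side by side within each vehicle group. The fetal triclosan arrays 1 to 4 read 238, 568, 156 and 3.2. The maternal triclosan arrays 1 to 3 read 75, 33.5 and 287. All 4 groups overlapped.

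At A_70_P016751, 4 of the 13 arrays were dark. By the scanner's own rule the probe was well above background on 9 arrays and not on the other 4, which were fetal vehicle 1 and 3, maternal vehicle 1 and fetal triclosan 4. The unscaled signals of the dark arrays were 5.617, 2.656, 5.881 and 2.671, with spot errors of 2.47 to 2.63 by the scanner software. The 77 negative control spots of an array had a median signal between 2.62 and 4.77, so the dark readings lay at or near that level. On the 9 bright arrays the unscaled signal ran from 29.09 to 1300, with a spot error of 130 at the top. Fetal vehicle 3 and fetal vehicle 4 share a group and a slide, and at 2.4 and 1154 they were the lowest and the highest of all 13 arrays. The mixed array that was left out read 403.3 before scaling, which its weights give from 5.881 and 999.5.

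A_70_P053731 was well above background on all 13 arrays and moved little. The fetal vehicle arrays 1 to 4 read 771, 538, 666 and 793, and the maternal vehicle arrays read 909 and 804. The fetal triclosan arrays 1 to 4 read 496, 506, 649 and 643, and the maternal triclosan arrays 1 to 3 read 608, 498 and 790. The 4 arrays that were dark at the other probe read 771, 666, 909 and 643 here, inside the span of the remaining arrays apart from maternal vehicle 1, which was the highest of all.

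**Figure D1:**
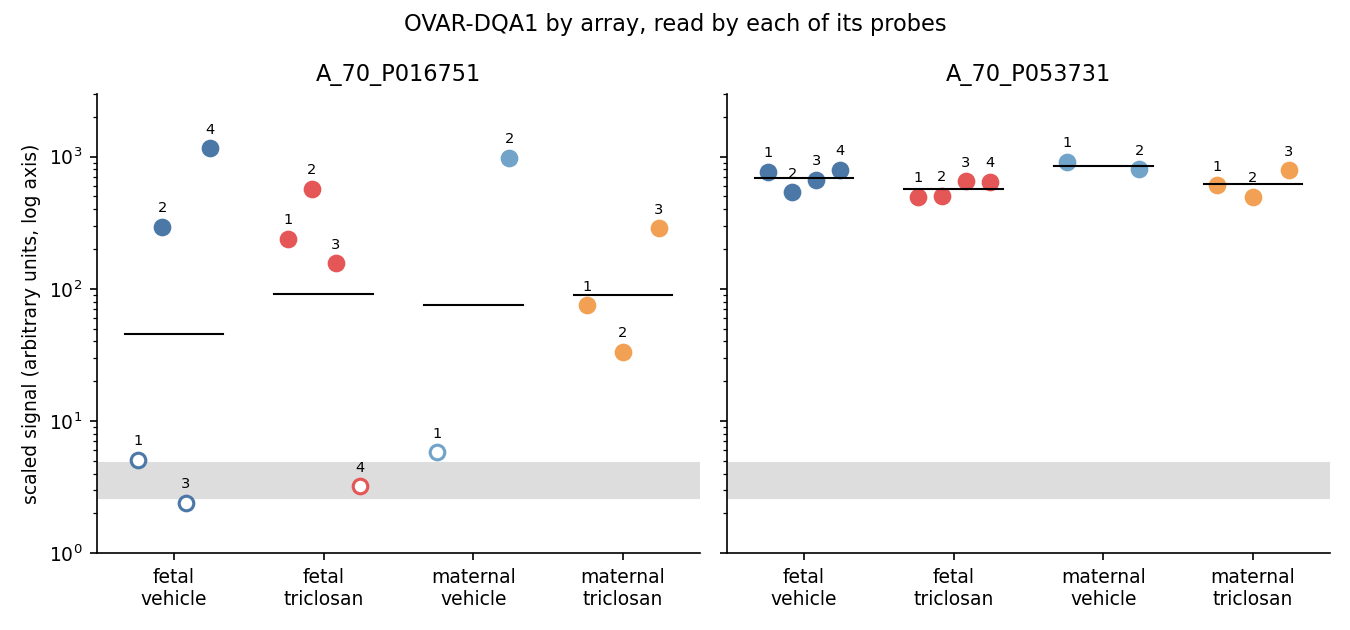
Scaled signal of the OVAR-DQA1 probes on 13 arrays (log axis, arbitrary units), 1 panel per probe. Points are arrays with their replicate number, open where the probe was not well above background, bars are group means of log2 levels, and the grey band spans the arrays' median signal of negative control spots (2.62 to 4.77, unscaled); 4 open points lie at or near the band for A_70_P016751 and none for A_70_P053731.

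Set against its own mean over the arrays, A_70_P016751 deviated by −4.90 (fetal vehicle 3) to 4.02 (fetal vehicle 4) on the log2 scale, whereas A_70_P053731 deviated by −0.40 (fetal triclosan 1) to 0.48 (maternal vehicle 1). On maternal vehicle 1, where A_70_P053731 was highest, A_70_P016751 deviated by −3.62. On fetal triclosan 2 the deviations were 3.00 for A_70_P016751 and −0.37 for A_70_P053731. Pearson's r between the probes was −0.16 over the 13 arrays, and 0.53 over the 9 arrays on which A_70_P016751 was well above background. These r describe arrays that share slides and reagents and carry no test.

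The measured log2 range over the arrays was 8.92 at A_70_P016751 and 0.87, or 1.83-fold, at A_70_P053731. The low end of the first is a reading not well above background. With each such reading raised to the lowest signal well above background on its array, the brightest array was at least 103-fold above the lowest, a log2 range of 6.68, and 8 kept probes had a range as large, A_70_P016751 included. With normexp background correction the range at A_70_P016751 was 4.61, and in the authors' deposited values, which appear to be on a log2 scale, it was 5.71. Among the 13738 probes kept (well above background on at least 3 arrays), the median range was 1.14. Including A_70_P016751 itself, 4 probes had a measured range as large as its own, against 9531 for A_70_P053731. The standard deviation (SD) within groups was 3.68 and 0.25 on the log2 scale, against a median of 0.27 over all kept probes. No other kept probe had an SD as large as that of A_70_P016751, as measured or with dim readings raised (2.88). Of all kept probes, 39 were below the background rule on 3 or more arrays and still reached a scaled signal of 1000 on another. Of the 153 kept probes that were below it on exactly 4 arrays, A_70_P016751 was the 1 with this set of 4. How many of the others also had a set of their own was not counted, so this is not a distinguishing trait.

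**Figure D2:**
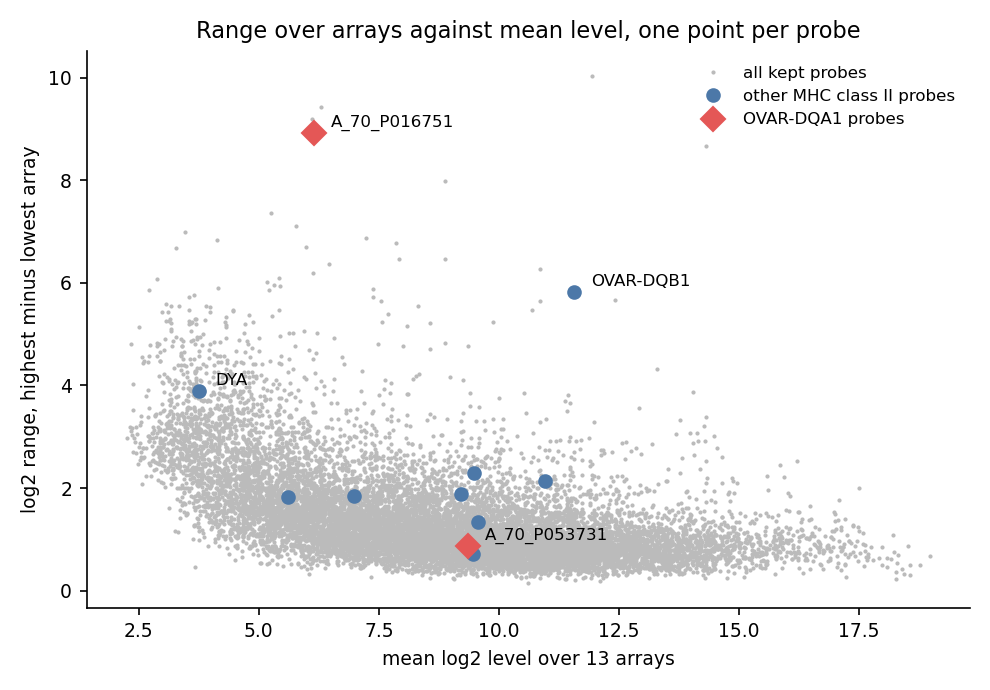
Log2 range over the 13 arrays against mean log2 level for the 13738 kept probes, 1 grey point each, with OVAR-DQA1 as diamonds and other MHC class II probes as circles. A_70_P016751 lies at a measured range of 8.92, with its low end below the background rule, far above probes of similar mean, and A_70_P053731 at 0.87 lies within the body of probes.

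Other genes with more than 1 probe give a scale for this disagreement. For each pair of kept probes that carry the same gene symbol (549 pairs, 457 symbols), the log2 difference between the probes was taken on each array and its SD over arrays computed. The median SD was 0.26, and for OVAR-DQA1 it was 3.28, first of the 549 pairs. With dim readings raised as above it was 2.56, again first. As measured, the next pair, of CAUXIN, had 2.36, and that of OVAR-DQA2 had 0.42, at rank 196. Most pairs overlap on the transcript. Among the 67 pairs whose listed starts lie at least 300 bases apart the median was 0.60, and OVAR-DQA1 (511 bases) was again first. This disagreement is part of why the gene was chosen, so the rank is a description.

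**Figure D3:**
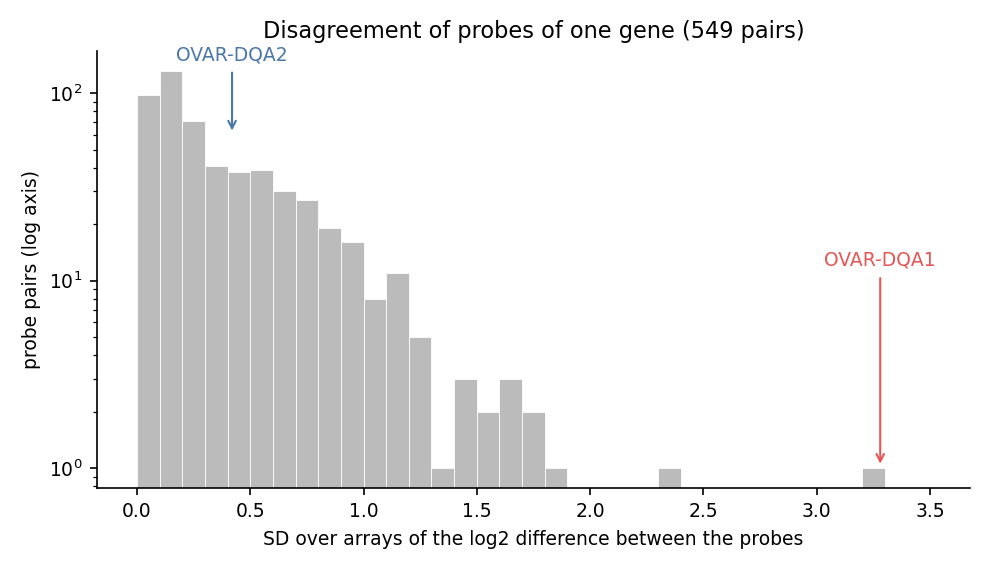
Number of same-gene probe pairs (log axis) by the SD over 13 arrays of the log2 difference between the probes, 549 pairs. OVAR-DQA1 stands alone at 3.28, and OVAR-DQA2 lies at 0.42 in the body of the distribution.

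Direct and indirect exposure are the comparisons of the study, and OVAR-DQA1 is described in them without a test. At A_70_P016751 the mean log2 level was 5.50 ± 4.36 (SD, n = 4) with fetal vehicle, 6.50 ± 3.30 (SD, n = 4) with fetal triclosan, 6.23 ± 5.24 (SD, n = 2) with maternal vehicle and 6.49 ± 1.57 (SD, n = 3) with maternal triclosan. The difference of triclosan from vehicle was 1.01 with a standard error (SE) of 2.32 in the direct arm and 0.26 (SE 2.99) in the indirect arm. Every gap between group means was smaller than the SD of either group. The signs rest on single arrays. The direct value was −0.41 without fetal vehicle 3 and −0.04 without fetal vehicle 1, and the indirect value was −3.45 without maternal vehicle 1, −0.58 without maternal triclosan 3 and 3.96 without maternal vehicle 2. With normexp background correction the indirect value was −1.24, and in the authors' deposited values it was −0.57. Within slides, which hold 1 or 2 arrays of a group, the direct difference was 5.54, 0.95 and 1.57 on slides 1, 2 and 3. With the slide as a block it was 2.71. Fetal triclosan 4, the dark triclosan array, lay alone on slide 5. It enters none of these within-slide values and adds nothing to the 2.71. The indirect difference was 3.70 and −4.87 within slides 1 and 2.

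At A_70_P053731 the order of the group means was fetal triclosan at 9.15 ± 0.21 (SD, n = 4), maternal triclosan at 9.28 ± 0.33 (SD, n = 3), fetal vehicle at 9.42 ± 0.26 (SD, n = 4) and maternal vehicle at 9.74 ± 0.13 (SD, n = 2). Neighbours among the lowest 3 groups lay closer than their SDs, and maternal vehicle exceeded fetal vehicle by more than the SD of either. The difference was −0.27 (SE 0.18) in the direct arm and −0.46 (SE 0.23) in the indirect arm. The fetal groups overlapped, at 496 to 649 with triclosan and 538 to 793 with vehicle. The maternal groups were parted by a narrow gap, from 790 at the top of triclosan to 804 at the bottom of vehicle. Within slides 1, 2 and 3 the direct difference was −0.64, −0.09 and −0.16, and within slides 1 and 2 the indirect one was −0.58 and −0.69. For reference, 18.3% of all kept probes passed an adjusted p of 0.05 in the direct arm (921 higher and 1590 lower, or 2127 higher and 932 lower after scaling by the array median) and 0% in the indirect arm, where 1322 probes had an unadjusted p below 0.05.

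The partners of the DQ alpha chain come next, with limma tests adjusted by Benjamini-Hochberg over all 13738 probes. OVAR-DQA2 was read by a pair of probes, and both followed A_70_P053731 across the arrays. At A_70_P026541, the near copy of A_70_P053731, the fetal vehicle arrays read 793, 561, 806 and 878, the fetal triclosan arrays 611, 531, 788 and 674, the maternal vehicle arrays 866 and 789, and the maternal triclosan arrays 663, 560 and 754. Its r with A_70_P053731 over the 13 arrays was 0.91. At A_70_P016707, which shares no such stretch, r with A_70_P053731 was 0.79. Neither r carries a test, and to what extent A_70_P053731 and A_70_P026541 each bind both transcripts was not tested.

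A_70_P016707 showed the largest difference of the DQ alpha probes in the indirect arm. The maternal triclosan arrays read 558, 278 and 685 and the maternal vehicle arrays 1359 and 826, so the groups did not overlap. The same held in this arm for A_70_P026541 and for the DR beta and DYA probes described below, DYA in the other direction. Groups of 3 and 2 arrays part easily, and the share of all kept probes that did so was not counted. At A_70_P016707 the log2 difference was −1.16 (SE 0.40, limma adjusted p = 0.454), which did not pass. In the direct arm it was −0.23 (SE 0.31, limma adjusted p = 0.65).

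OVAR-DQB1 encodes the beta chain that pairs with DQ alpha, and its probe, A_70_P017031, varied most among the class II probes that were well above background on all 13 arrays. The fetal vehicle arrays read 3621, 3433, 3348 and 7294, and the fetal triclosan arrays 6283, 140, 1204 and 4802. The maternal vehicle arrays read 7396 and 7912, and the maternal triclosan arrays 1745, 1474 and 7879. Its lowest array, fetal triclosan 2, was the third brightest of all at A_70_P016751, and fetal triclosan 4, dark at A_70_P016751, read 4802. The log2 range was 5.82, with 29 of the kept probes as large or larger. The differences were −1.47 (SE 1.01, limma adjusted p = 0.343) in the direct and −1.49 (SE 1.31, limma adjusted p = 0.704) in the indirect arm. Single arrays carry much of both: the direct value was −0.33 without fetal triclosan 2 and −2.16 without fetal triclosan 1, and the indirect value was −1.04 without maternal triclosan 2 and −2.25 without maternal triclosan 3.

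The DR pair varied less. OVAR-DRA, the DR alpha chain, read 1928, 1810, 1422 and 1930 with fetal vehicle and 1903, 2766, 4020 and 2724 with fetal triclosan. With maternal vehicle it read 3005 and 1680, and with maternal triclosan 1825, 919 and 1541. The differences were 0.65 (SE 0.28, limma adjusted p = 0.126) and −0.71 (SE 0.36, limma adjusted p = 0.548), and the difference between the arms was 1.36 (SE 0.45, limma adjusted p = 0.262). After scaling by the array median instead, which raises the median direct difference of all probes from −0.09 to 0.13, the direct value became 0.87 with a limma adjusted p of 0.0339.

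Over all 13 arrays, the class II readings most like A_70_P016751 were those of 3 of the 4 DR beta probes. OVAR-DRB3, a DR beta chain gene, read 576, 675, 488 and 1236 with fetal vehicle and 722, 938, 1174 and 646 with fetal triclosan. It read 884 and 1134 with maternal vehicle and 575, 490 and 746 with maternal triclosan. Fetal vehicle 1 and 3, dark at A_70_P016751, gave the 2 lowest readings of their group here, and fetal triclosan 4 the lowest of its group. Maternal vehicle 1, also dark there, was the lower of only 2 arrays. This order is part of the r given next and adds nothing separate to it. The r of OVAR-DRB3 with A_70_P016751 was 0.65 over 13 arrays, 0.56 without the 2 arrays farthest from the median of A_70_P016751, and 0.80 over the 9 bright ones. OVAR-DRB1, the main DR beta chain gene, was read by 3 probes, of which A_70_P016821 had r = 0.59, A_70_P024151 r = 0.44 and A_70_P024146 r = −0.30 with A_70_P016751 over 13 arrays. Without the same 2 arrays these were 0.38, 0.15 and −0.42. Over the 9 bright arrays the OVAR-DQA2 probe A_70_P016707, at −0.14 over 13 arrays, came next after OVAR-DRB3 with r = 0.78, ahead of A_70_P024151 (0.72) and A_70_P016821 (0.68). These DRB1 probes were designed on different allele or transcript records, and A_70_P024146 was dim, at 31.9 to 114. None of the DR beta probes passed in either arm.

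DYA, the alpha chain of the ruminant DY molecule, was near background and well above it on 5 arrays, among them none with fetal triclosan. Its differences of −1.17 (limma adjusted p = 0.185) and 1.70 (limma adjusted p = 0.511) rest on such dim readings, and they turned to 0.02 and −0.26 with another background correction. With the slide as a block the direct difference was −1.26 (limma adjusted p = 0.0287).

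**Figure D4:**
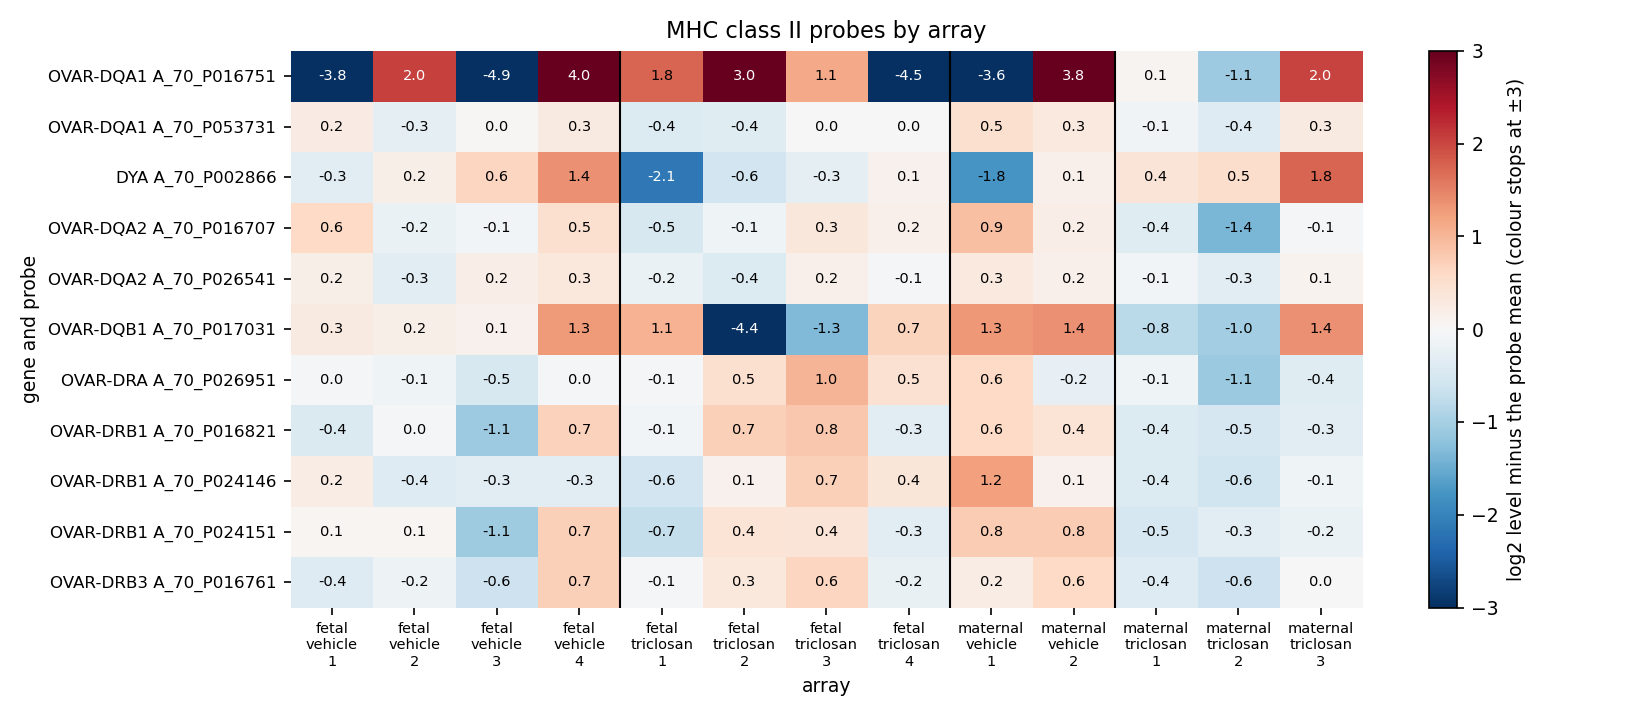
Log2 level of 11 MHC class II probes (rows) on 13 arrays (columns, grouped by condition), each minus the probe's own mean, with the colour scale ending at ±3 and the value printed in each cell. A_70_P016751 runs from −4.9 to 4.0 and OVAR-DQB1 reaches −4.4 on fetal triclosan 2, while A_70_P053731 stays between −0.4 and 0.5.

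Over the class II list, 9 probes other than those of OVAR-DQA1 were tested, and none passed in the direct arm (18.3% of all kept probes did), the indirect arm or the difference between the arms. At an unadjusted limma p below 0.05 there were 1, 4 and 5, against 4571, 1322 and 2032 of the 13738 kept probes. In the direct arm 5 were positive and 4 negative, with a median of 0.00 against −0.09 for all kept probes. In the indirect arm 8 of 9 were negative, with a median of −0.91 against 0.01 for all kept probes, and this arm rests on 2 vehicle arrays. The 9 probes stand for 6 genes and share the same arrays, so their signs are not independent. Of the genes that cut peptides for class II loading, CTSS (cathepsin S) had 0.01 (SE 0.19) and LGMN (legumain) −0.02 (SE 0.11) in the direct arm, and −0.57 (SE 0.24, limma adjusted p = 0.496) and −0.10 (SE 0.14) in the indirect arm.

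**Figure D5:**
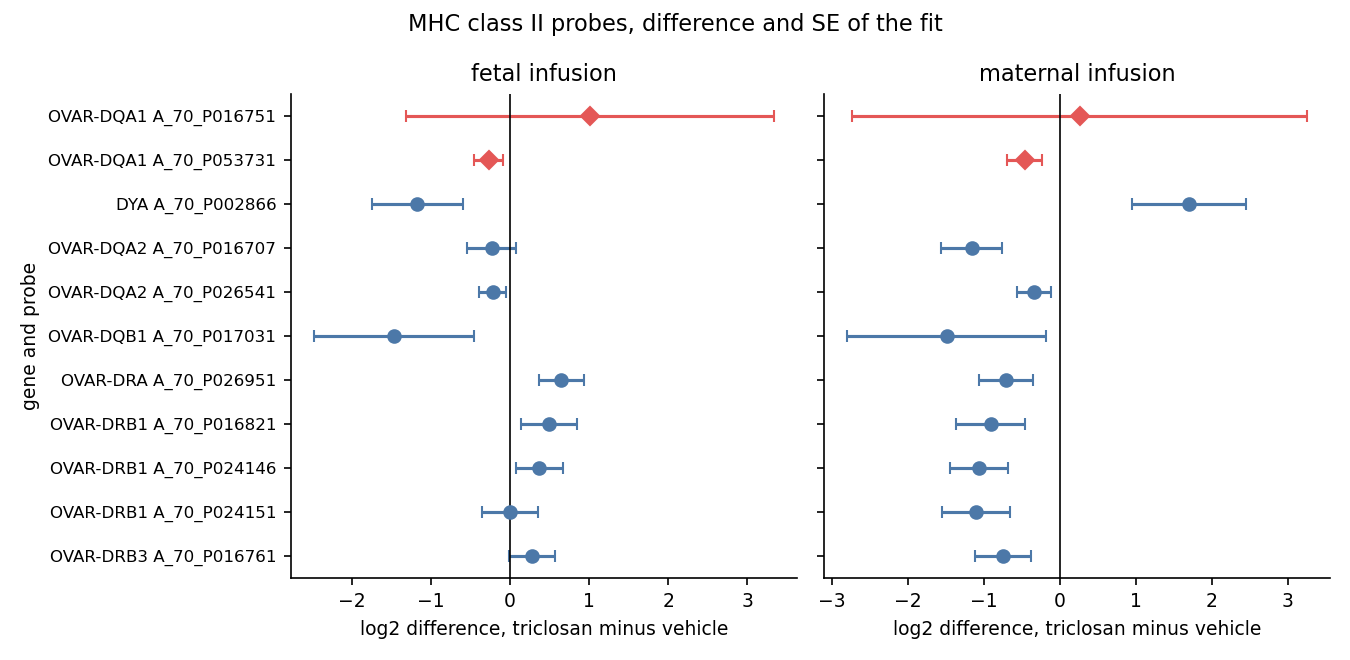
Log2 difference of triclosan minus vehicle with the SE of the limma fit (bars) for 11 MHC class II probes, after fetal infusion (left) and maternal infusion (right). Diamonds are OVAR-DQA1: A_70_P016751 has bars of 2.32 and 2.99, and A_70_P053731 of 0.18 and 0.23.

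Class I, the other MHC class, shows peptides from inside the cell to CD8+ T cells. Of its 15 probes, 2 rose in the direct arm (limma adjusted p = 0.0213 and 0.0418), when 6.7% of all kept probes rose, and 14 of 15 differences were positive, with a median of 0.59. These probes may share targets and are not independent. Their mean deviation was positive on fetal triclosan 1 to 3 (0.64, 0.40 and 0.73) and maternal triclosan 3 (0.54), and −0.24 on fetal triclosan 4. On the vehicle arrays it ran from −0.55 (fetal vehicle 4) to 0.01, and it was −0.19 and −0.24 on maternal triclosan 1 and 2. PSME2, a proteasome activator subunit used in class I peptide supply, rose by 0.48 (SE 0.12, limma adjusted p = 0.0214) at one probe and 0.46 (SE 0.13, limma adjusted p = 0.0339) at the other. Without fetal triclosan 4 the class I probes called were 6, and without fetal vehicle 2, fetal vehicle 4 or fetal triclosan 2 they were 0, as they were with quantile normalization and in the authors' deposited values. HSP70.1 is a heat shock protein gene of the region between class I and class II. It fell by 1.48 (SE 0.25, limma adjusted p = 0.0047) in the direct arm, when 11.6% of all kept probes fell. TNF, the other of 2 measured genes listed for that region and its flanks, had 0.03 (SE 0.22).

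Interferon gamma is the main inducer of class II genes. Of 6 measured genes of its pathway, 1 rose in the direct arm, the chemokine gene CXCL10 by 1.76 (SE 0.52, limma adjusted p = 0.0359), when 6.7% of all kept probes rose, and none fell. IFNG itself had −0.10 (SE 0.27) and IRF1, a factor induced by it, −0.54 (SE 0.29). None passed in the indirect arm.

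Cell types that carry class II were followed by their markers. Of 10 measured microglia and macrophage genes, 2 fell in the direct arm, ITGAM (CD11b) by 0.95 (limma adjusted p = 0.0377) and CD40 by 0.62 (limma adjusted p = 0.0476), and none rose, when 11.6% of all kept probes fell. The median over the list was −0.20 against −0.09 for all kept probes, and 4 of 10 differences were positive, among them FCER1G at 0.47 (limma adjusted p = 0.0762) and CD86 at 0.40 (limma adjusted p = 0.0738). The second probe of each, at −0.78 for ITGAM and −0.76 for CD40, did not pass. Their summed signal spanned 1820 to 2560 in the fetal vehicle arrays and 2260 to 2730 in the fetal triclosan arrays. In the indirect arm it spanned 2560 to 2660 for vehicle and 2260 to 2460 for triclosan. Of 3 T cell genes none passed. No kept probe bore the name of a listed B cell or dendritic cell marker, so those cells were not followed. In bulk tissue fewer cells of a type and less RNA per cell cannot be told apart. The summed signal of 3 red cell genes spanned 7180 to 20900 for vehicle and 19800 to 39300 for triclosan in the direct arm, where the spans overlapped. In the indirect arm it spanned 5490 to 15200 and 17600 to 45800, without overlap. Such parting was common in that arm. Of the other measured lists, only those of the interferon gamma pathway and of meninges and connective tissue had overlapping spans there. Of the red cell genes 1 passed in the direct arm, AHSP (a chaperone of alpha globin). It rose by 0.94 (limma adjusted p = 0.038) at one probe and 0.51 (limma adjusted p = 0.241) at the other. None passed in the indirect arm. The part of blood in the class II values was not tested. Among 10 measured hypothalamic peptide genes, 9 had a probe well above background on all 13 arrays, among them NPY, GAL, AGRP and POMC. GNRH1 had one on 11. Only 1987 of the 13738 kept probes were below the background rule on at least 1 array. Most probes thus passed on every array, so this detection cannot tell the labelled tissue from another.

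The named genes most like each probe were ranked by Pearson's r of the deviations from the group means over 13 arrays, as a description of points that share slides. For A_70_P016751 they were POMC (r = 0.86), OVAR-DRB3 (0.78), the TRH receptor gene TRHR (0.78), IGF2 (0.77) and PHF14 (0.76), and 71 of the kept probes were at least as high as OVAR-DRB3. For the levels themselves r over 13 arrays was 0.67 for POMC, 0.55 for IGF2, 0.66 for PHF14, 0.65 for OVAR-DRB3 and 0.53 for TRHR. Over the 9 bright arrays r of the levels was −0.17, −0.28, −0.20, 0.80 and 0.81, in the same order. The r of deviations was not computed over the 9 bright arrays. How far the ranking rests on the dark arrays was thus not tested. POMC, the precursor of ACTH and melanocortins, read 1400, 2030, 985 and 3870 with fetal vehicle, low on the dark arrays and high on fetal vehicle 4. The most opposed were CYP2J (−0.83), IRF2 (−0.81), GRPEL1 (−0.79), GATA3 (−0.78) and SMAD7 (−0.77). The r of their levels was −0.74, −0.73, −0.60, −0.67 and −0.55 over 13 arrays, in the same order. Over the 9 bright arrays it was −0.05, −0.63, 0.21, −0.41 and −0.36.

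For A_70_P053731 the list was led by OVAR-DQA2 (0.90), then TLR7 (0.88), COL6A1 (0.87), I-MF (0.86) and NKX2.2 (0.84), and 8 kept probes were at least as high as TLR7. TLR7, a receptor for single-stranded RNA carried by immune cells, had r = 0.91 for the levels themselves and 0.88 without the 2 arrays farthest from the probe's median. It read 33.7, 21.6, 26.5 and 35.7 with fetal vehicle and 19.6 to 28.8 with fetal triclosan. The most opposed were ATP6V0C (−0.89), PRNP (−0.85), SLIRP (−0.83), PSMB7 (−0.79) and CAPN2 (−0.77), and for CAPN2 r of the levels was 0.10. The genes named for one probe and those named for the other had none in common.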

How the data were processed

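Hypothalamic RNA of fetal sheep was hybridised in 1 colour (Cy3) to 14 Agilent ovine arrays, of which 13 were used. The scanner output deposited by the authors gives intensity per spot, made with Agilent Feature Extraction 10.1.1.1 per the file headers. Its processed signal is background-subtracted and not scaled between arrays. The authors' deposited value table, used as an alternative, appears to be on a log2 scale with columns of nearly equal distribution (medians 8.78 to 8.80). Its scaling was not given in the sources used here, and of limma the submitters' processing notes give the name alone.

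Processed signals were put on the log2 scale, each array's 75th percentile was subtracted, and 1 common constant was added back so that signals read in the original range. Control and outlier spots were left out. A probe was kept when well above background on at least 3 arrays (13738 of 15008 probes). Group means were fitted with limma 3.58.1 (R 4.3.3) with 9 residual and 2.39 prior degrees of freedom, and p-values were adjusted by Benjamini-Hochberg over all kept probes at 0.05. On simulated data the fit called 184 of 200 changed probes and 7 others in the direct arm. The change was put into the fetal triclosan arrays alone, with noise independent between probes. It was larger than each direct difference of the class II probes. The share it would call of differences the size of those reported for the class II probes was not tested, in either arm. Plots used matplotlib 3.10.9 and tables pandas 2.3.3, under Python 3.11.15.

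On an array 83.3% to 90.1% of spots passed the background rule and 0 were saturated. The number of arrays limits the precision. Arrays numbered 1, 2 and 3 lay on slides 1, 2 and 3 with fetal vehicle 4 on slide 3, and fetal triclosan 4 lay alone on slide 5 with a scan day of its own, so that its values cannot be told apart from that slide. Names were taken from the scanner annotation and the supplied RefSeq table (ARS-UI_Ramb_v3.0, names only). Of the probes, 700 matched by transcript and 13397 had no gene name.

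OVAR-DQA1 and all gene lists were chosen with earlier results of these data known, so OVAR-DQA1 carries no test and the tests of listed genes are not independent of that choice. Genes named are every OVAR-DQA1 probe, up to 8 members of each list, and the 5 most and 5 least alike genes per probe by Pearson's r of deviations from the group means.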

Additional observations from a re-analysis of the deposited data

Results flagged for a closer look

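Results for 2 arrays among the class II probes stood apart within a group of 4 arrays, since the gap to the nearest other array took up most of the range of the group (0.90 and 0.91 of it). At OVAR-DQB1, fetal vehicle 4 read 7294 against 3348 to 3621 on the other fetal vehicle arrays. At the dim OVAR-DRB1 probe A_70_P024146, fetal vehicle 1 read 56.7 against 37 to 38 on the others. Of 26 groups examined chance would flag about 1 in 20. At A_70_P016751 no array stood apart in this sense.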

How the results depend on the processing

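The OVAR-DQA1 differences carry no test. At A_70_P016751 the direct difference was 1.01 with and 1.01 without the replicate block, 2.71 with the slide as a block and −0.41 to 2.61 when single arrays were left out, and the indirect difference was −3.45 to 3.96 when single arrays were left out. Its log2 range of 8.92 fell to 4.61 with normexp background correction, which adds an offset of 50, and was 5.71 in the authors' deposited values. At A_70_P053731 the direct difference was −0.38 to −0.20 and the indirect difference −0.64 to −0.30 when single arrays were left out, and with the replicate block −0.27 and −0.57.

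Counts of probes called moved more. In the direct arm 2511 probes passed, 1589 with quantile normalization, 1350 with only the 2 groups compared, 2819 with the replicate block, and 1250 (without fetal vehicle 3) to 2953 when single arrays were left out. In the indirect arm 0 passed, with 11 on all 14 arrays, where the mixed array adds a false replicate, and 0 to 2 when single arrays were left out. For the difference between the arms 0 passed, with 7 on all 14 arrays, 1 with quantile normalization and 0 to 41 when single arrays were left out (41 without fetal triclosan 3). The class II probes called in the direct arm were 0, and 1 with median scaling (OVAR-DRA), with the slide as a block (DYA) and with the replicate block (DYA at −1.17, limma adjusted p = 0.0234). The class I probes called were 2, and 1 with normexp, 9 with median scaling, 0 with quantile normalization and 0 in the authors' deposited values, 7 with the slide as a block, 1 with the replicate block, 1 with only the 2 groups compared, and 0 to 6 when single arrays were left out. DYA turned from −1.17 to 0.02 (direct) and from 1.70 to −0.26 (indirect) with normexp. The OVAR-DQA2 probe A_70_P026541 went from −0.22 to 0.00 with median scaling, and the OVAR-DRB1 probe A_70_P024151, at 0.00, ran from −0.33 to 0.26 when single arrays were left out. The cause was not tested.

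Same-numbered arrays lay on 1 slide, apart from fetal vehicle 4 and fetal triclosan 4. Their deviations correlated between −0.09 and 0.46 on 1 slide and by −0.17 for that pair, not all above 0.1, so the numbers were not taken to pair the samples. The slide block covers what a slide shares. Fetal triclosan 4, alone on slide 5, adds nothing to the direct difference in that fit. Raising dim values to the lowest signal above background, an alternative chosen after seeing the data, gave 0.70 and −0.25 for the direct and indirect difference at A_70_P016751, and a log2 range of 6.68.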
